A study of Mus musculus with 7 samples.

Results

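The genes described here encode the enzymes that activate, carry and oxidize fatty acids, the lipid-binding proteins that hold fatty acids in the cytoplasm, and the peroxins that build peroxisomes. They were taken by gene symbol alone from the deposited expression table of whole mouse kidneys at E15.5, an embryonic stage when nephrons are forming. The families were Fabp, Acsl, Acsm, Cpt1 and Cpt2, Acad, Ech with Hadh, Acox with Ehhadh, Acot and Pex. No measured value entered the rule, but the members were chosen with earlier results of these data known. Their shares set against all genes below are therefore descriptions. The rule gave 64 of the 16167 listed genes. Of these, 60 reached 1 FPKM (fragments per kilobase of gene, scaled to library size) in at least 3 libraries and were tested among 13466 genes. The study compared 4 mutant libraries, Six2-Cre; Irx3/5(loxP/loxP), with 3 libraries of littermate controls, Irx3/5(loxP/+), whose genotype tag reads WT. Irx3 and Irx5 encode homeobox transcription factors, floxed on both chromosomes in the mutants and on 1 in the controls. Six2-Cre acts in nephron progenitors and thus in the epithelium made from them, while stroma, vessels and the ureteric tree arise from other cells. The control labels name no Cre, so a Cre effect and a deletion effect cannot be separated here. Kidneys were collected as pairs, and how many embryos went into a library is not given in the sources used here, so each p-value speaks for the spread among these libraries.

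Fatty acids enter oxidation as coenzyme A thioesters, made by acyl-CoA synthetases. Long chains cross into mitochondria as carnitine esters through the CPT enzymes and are then shortened by repeated rounds of dehydrogenation, hydration, another dehydrogenation and cleavage. Peroxisomes shorten very long and branched chains with their own oxidases, and thioesterases release the free acid again. In the mature kidney the proximal tubule relies on fatty acid oxidation for much of its energy.

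Reads recovered from the table ranged from 40511920 to 69028943 per library. Irx3 lay at 12.7 to 14.7 FPKM in controls and 3.98 to 6.75 in mutants, while Irx5 lay at 1.36 to 1.59 and 0.895 to 2.05, with mutants 1 and 4 above every control (log2 fold change -0.01, SE 0.17, limma adjusted p = 0.989). Which exons are floxed is not given in the sources used here, so reads outside the deleted part can remain, and the Irx5 level checks nothing. Of 18 listed proximal tubule markers 15 were tested, 13 had a fold change below 0, and 2 passed limma's test, both lower. Such lower calls took 1.05% of all genes tested. At an unadjusted limma p under 0.05, 12 were lower and 1 higher, against 8.48% and 5.26% of all genes. The authors' deposited table called 8 of the 15 lower and 0 higher, against 3.84% and 1.85%. Their median log2 fold change by limma was -0.84. The summed level of the 18 markers ran over 221 to 273 FPKM in controls and 80.7 to 184 in mutants. Slc5a12, a marker of the mature tubule, stayed under 1 FPKM throughout. Mutant replicate 3 had the lowest of these sums and the highest level of the embryonic globin gene Hbb-y, 149 FPKM where the others had 15.3 to 54.7. The part of either in the results below was not tested. In whole-kidney RNA, fewer cells of a type and less RNA per cell cannot be told apart.

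Few members passed the test, and those that limma called were weakly expressed. Of the 60 tested members 4 fell in mutants and none rose by limma (adjusted p under 0.05 over all genes tested). The 4 were Acsm1, Acsm2, Cpt1b and Acot4. Lower calls took 6.67% of the members and 1.05% of all genes tested, and higher calls 0% and 0.475%. At an unadjusted p under 0.05 there were 14 lower and 1 higher members, with a background of 8.48% and 5.26%. These limma shares of all genes tested are also the background for the counts by family and list below. Limma-voom on the recovered counts called 4 lower and 0 higher (background 1.16% and 0.468%). The authors' deposited table called 8 of the tested members lower and none higher (background 3.84% and 1.85%), adding Acot3, Fabp3, Acadm and Ehhadh.

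The median log2 fold change (mutant minus control, of FPKM + 1) was -0.08 over the 60 members and -0.002 over all genes tested. Of the members 42 lay below 0, which is 70%, against 50.8% of all genes. All mutants were below all controls for 11 members (background 8.61%) and above them for 1 (background 5.93%). Acot3 was the only tested member with no mutant library at 1 FPKM, so it passed the filter through the controls alone. Among the called members, Acot4 reached 1 FPKM in mutant replicate 1 only (1.04). Acsm1 did so in mutant replicates 1 and 2 only (1.45 and 1.04). Both thus also needed the controls to pass the filter.

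By level, of the 32 members with a mean of at least 10 FPKM none was called by limma or limma-voom. Limma's background of lower calls at this level (adjusted p under 0.05) was 0.415%. At an unadjusted p under 0.05, 6 of the 32 were lower and 1 higher. The unadjusted background over genes of any level was 8.48% and 5.26%. The authors' deposited table called 2 of these 32 lower, Fabp3 and Acadm (background 2.32%), and 6 of those under 10 FPKM (background 5.26%). The 4 limma calls were all among the 28 tested members under 10 FPKM, where limma's background was 1.65%. Leaving out any 1 control, or mutant replicate 4, left 0 of the members called. Leaving out mutant replicate 2 or 3 left Acsm1 and Acsm2. Leaving out mutant replicate 1 kept the 4 and added Acot1 and Acot3. Over all genes, lower calls changed too, from 142 in the main fit. They numbered 10, 7 and 33 without control replicates 1, 2 and 3. Without mutant replicates 1, 2, 3 and 4 they numbered 373, 33, 86 and 23. The fold changes of the 4 called members stayed below 0 in each of these omissions.

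**Figure D1:**
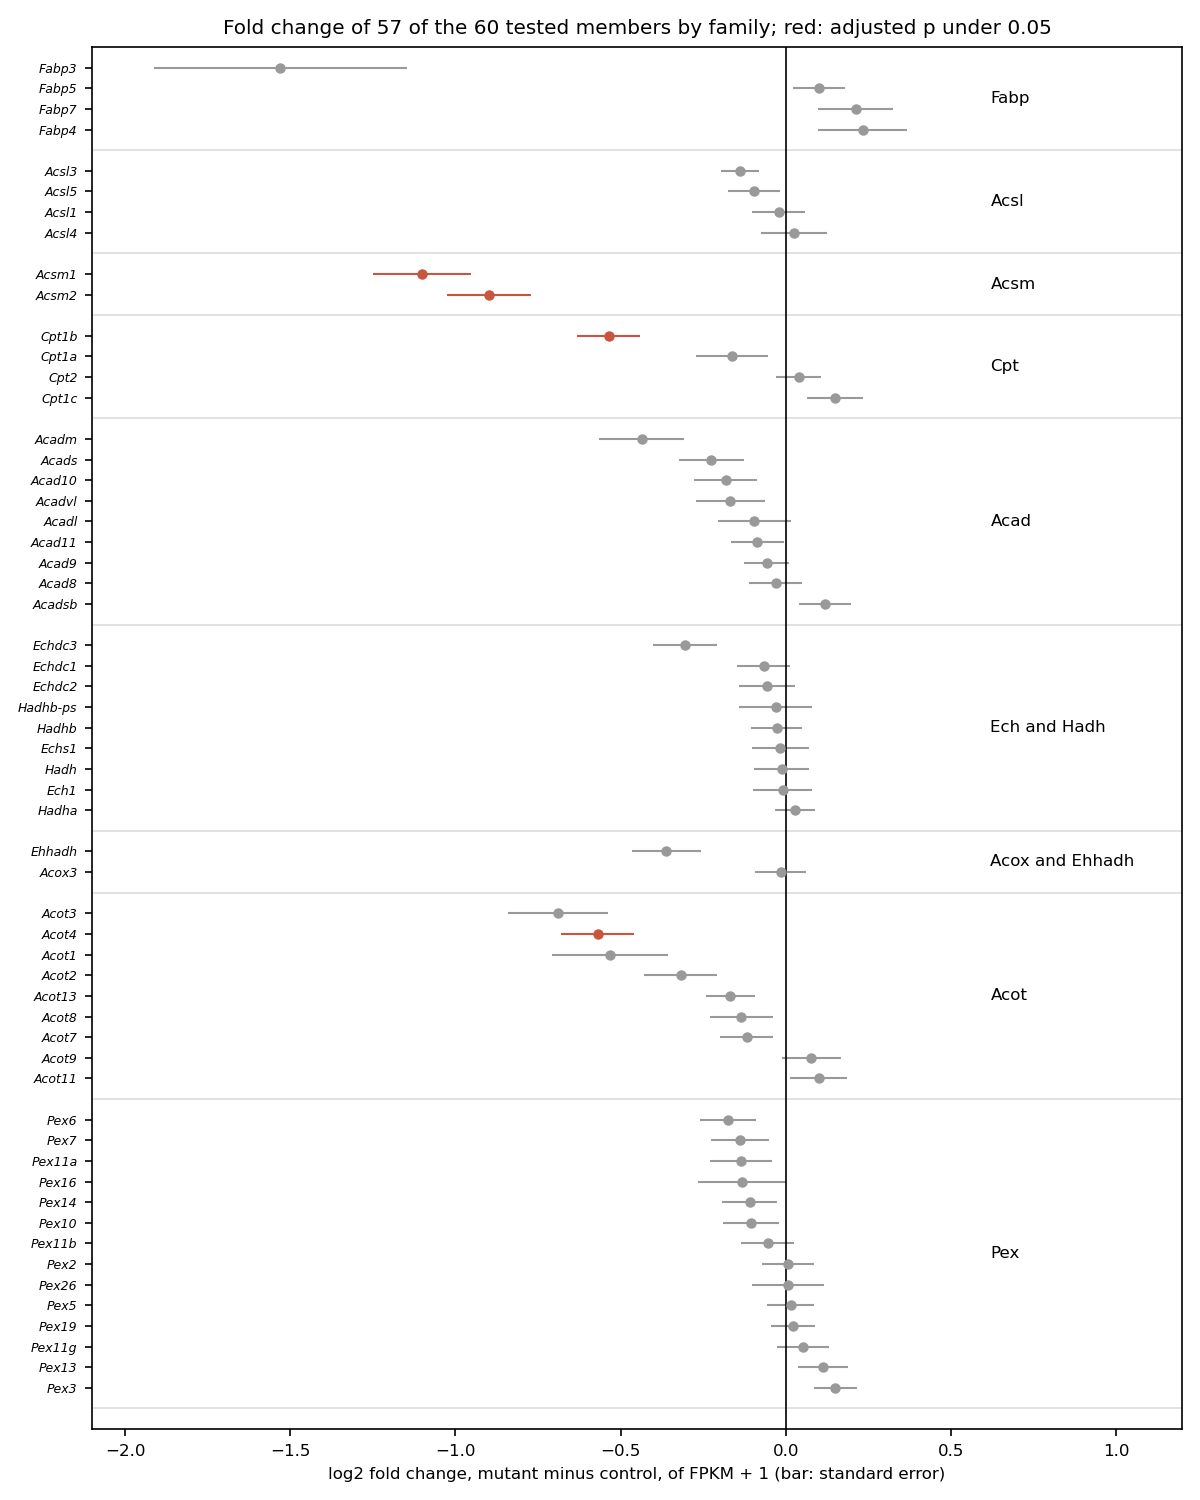
Log2 fold change (mutant minus control, of FPKM + 1; horizontal axis) of 57 of the 60 tested members, grouped by family, with bars for the standard error and a separate colour for members that passed limma's adjusted p under 0.05. The members that passed are Acsm1, Acsm2, Cpt1b and Acot4, and the Pex genes lie between -0.17 and 0.15.

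Activation of medium-chain acids held the largest called changes. The Acsm genes encode medium-chain acyl-CoA synthetases of the mitochondrial matrix and lie side by side on chromosome 7 in the order Acsm5, Acsm2, Acsm1, Acsm4 and Acsm3. The 250 bases before the annotated starts of Acsm1 and Acsm2 are printed because these neighbours fell together (RefSeq, GRCm38.p6, plus strand, 5′ to 3′; RefSeq gives Acsm2 a pair of starts). Capitals mark matches, on either strand, to AGGTCA, a half-site of nuclear receptors, or to GTTAAT, a half-site of HNF1. CAAAGGTCA and a direct repeat of AGGTCA with 1 base between, which both contain AGGTCA, were searched too.
Acsm1, chr7:119617562-119617811: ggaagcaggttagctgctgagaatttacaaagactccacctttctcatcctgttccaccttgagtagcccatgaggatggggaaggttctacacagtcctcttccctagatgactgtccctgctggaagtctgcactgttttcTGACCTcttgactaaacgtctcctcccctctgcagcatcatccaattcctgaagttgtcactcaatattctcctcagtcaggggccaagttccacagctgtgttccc
Acsm2, first start, chr7:119554090-119554339: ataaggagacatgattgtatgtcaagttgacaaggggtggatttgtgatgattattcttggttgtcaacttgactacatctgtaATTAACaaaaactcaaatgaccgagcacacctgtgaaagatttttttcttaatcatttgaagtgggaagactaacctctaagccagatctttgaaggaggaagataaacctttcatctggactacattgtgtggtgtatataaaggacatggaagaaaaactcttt
Acsm2, other start, chr7:119561458-119561707: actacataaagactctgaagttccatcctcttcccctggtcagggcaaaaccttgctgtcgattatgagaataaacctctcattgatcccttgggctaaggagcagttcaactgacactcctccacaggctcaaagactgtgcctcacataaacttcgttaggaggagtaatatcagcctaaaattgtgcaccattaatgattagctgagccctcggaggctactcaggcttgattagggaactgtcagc
Acsm1 held the reverse complement of AGGTCA from 107 bases before its start, and the first window of Acsm2 that of GTTAAT from 166 bases before. AGGTCA was in 10 of the 59 windows found for 51 of the 64 members (16.9%) and in 14% of all 32851 windows. GTTAAT was in 8.47% and 6.43%, CAAAGGTCA in 1.69% and 0.426%, and the direct repeat in 0% and 0.0335%. A match of letters is a description and not a site of binding.

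Acsm1 (ENSMUSG00000033533.15) gave 2.74, 3.05 and 3.87 FPKM in control libraries 1 to 3 and 1.45, 1.04, 0.737 and 0.679 in mutant libraries 1 to 4. The groups did not overlap, and the mutant mean was 30.3% of the control mean (log2 fold change -1.10, SE 0.15, limma adjusted p = 0.0156). The values rested on 347 to 417 reads per control and 74 to 170 per mutant. Acsm2 (ENSMUSG00000030945.18) gave 5.82, 6.21 and 6.47 FPKM in control and 3.13, 3.50, 2.04 and 2.86 in mutant libraries. The controls were close together, every mutant lay below them, and the mutant mean was 46.7% of theirs (log2 fold change -0.90, SE 0.13, limma adjusted p = 0.0191). Acsm3 and Acsm5 did not reach 1 FPKM in any library and were not tested. Acsm5 lay at 0.186 to 0.211 FPKM in controls and 0.0923 to 0.146 in mutants, without overlap, and Acsm3 at 0.270 to 0.329 and 0.0995 to 0.289, on as few as 18 and 19 reads. Acsm3 was low in mutant replicate 3, while the other mutants lay within or just under the control range. No stretch of 50 bases of Acsm1 was shared with another annotated gene's transcripts, and 0.553% of those of Acsm2 were.

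**Figure D2:**
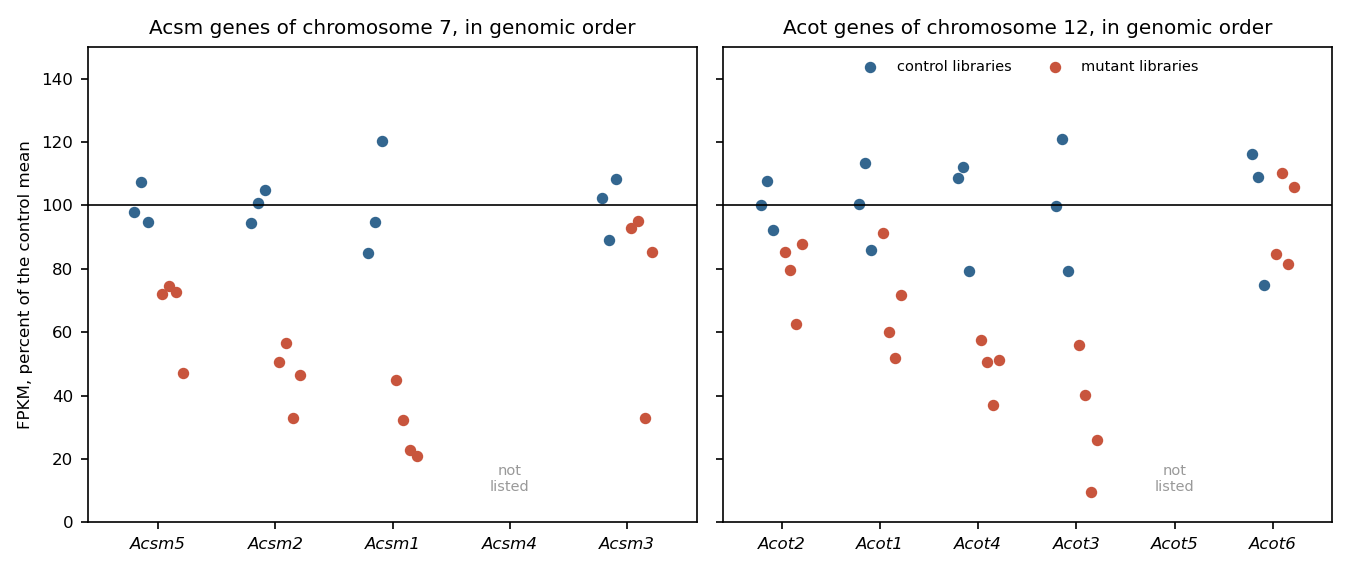
FPKM of each listed Acsm gene of chromosome 7 (left) and Acot gene of chromosome 12 (right), in genomic order, as a percent of its control mean (vertical axis, linear from 0), with 1 point per control and mutant library. The mutants lie at 21.1% to 44.9% for Acsm1 and at 37.1% to 57.5% for Acot4, while Acot6 overlaps its controls.

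The long-chain synthetases held no called member. Of the 4 Acsl genes tested 0 passed by limma or limma-voom, and 1 was lower at an unadjusted p under 0.05. That gene was Acsl3, a synthetase of the endoplasmic reticulum and lipid droplets and the most abundant of the family, at 23.9 to 24.9 FPKM in controls and 20.9 to 22.9 in mutants (log2 fold change -0.14, SE 0.06, limma adjusted p = 0.333). Its groups did not overlap, although the gap was small. Acsl3 shares exon bases on the same strand with Utp14b, and reads of the overlap are uncertain. The log2 fold change was -0.10 ± 0.08 (SE) for Acsl5 and -0.02 ± 0.08 (SE) for Acsl1, both with overlapping groups.

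Among the fatty acid-binding proteins Fabp3 was lower in each mutant library than in any control, and the others overlapped. Of the 4 Fabp genes tested 0 passed by limma or limma-voom, and 1 was lower at an unadjusted p under 0.05. Fabp3, the heart-type form, gave 17.7, 20.2 and 13.1 FPKM in control libraries 1 to 3 and 9.49, 6.18, 2.22 and 4.93 in mutant libraries 1 to 4. The mutant mean was 33.5% of the control mean, with a wide spread among mutants (log2 fold change -1.53, SE 0.38, limma adjusted p = 0.123). In the authors' deposited table its adjusted p was 0.0337. Fabp3 took 7.07%, 7.17% and 4.67% of the summed FPKM of the 4 Fabp genes in controls and 2.87%, 2.08%, 0.908% and 1.59% in mutants. Fabp3 is also a muscle gene, and the muscle markers summed to 64.3 FPKM in control replicate 1 and to 6.81 to 8.45 in the other libraries. The log2 fold change of Fabp3 was -1.53 with and -1.49 without control replicate 1 (limma adjusted p = 0.123 and 0.326). Any part of muscle RNA in the values of Fabp3 was not tested. Of its 50-base stretches 29.2% were shared, with a pseudogene copy, and its value is uncertain to that extent.

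Fabp4, the form of adipocytes and capillary endothelium, was the most abundant member of all, at 129 to 158 FPKM in controls and 134 to 196 in mutants (log2 fold change 0.23, SE 0.14, limma adjusted p = 0.537). None of the 10 endothelial markers passed by limma or limma-voom (1 higher at an unadjusted p under 0.05), and their sums were 262 to 272 and 259 to 300 FPKM. Of 9 adipocyte markers Lpl was the 1 listed, at 5.34 to 7.30 and 4.63 to 5.84 FPKM. Fabp5, the epidermal form, lay at 103 to 108 and 104 to 122 FPKM. Fabp7, the form of glia and their precursors, lay at 1.81 to 2.09 and 1.79 to 2.74 FPKM (limma adjusted p = 0.492). Of 8 glial markers the 1 tested was Erbb3, at 5.76 to 6.52 FPKM in controls and 5.35 to 7.90 in mutants.

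**Figure D3:**
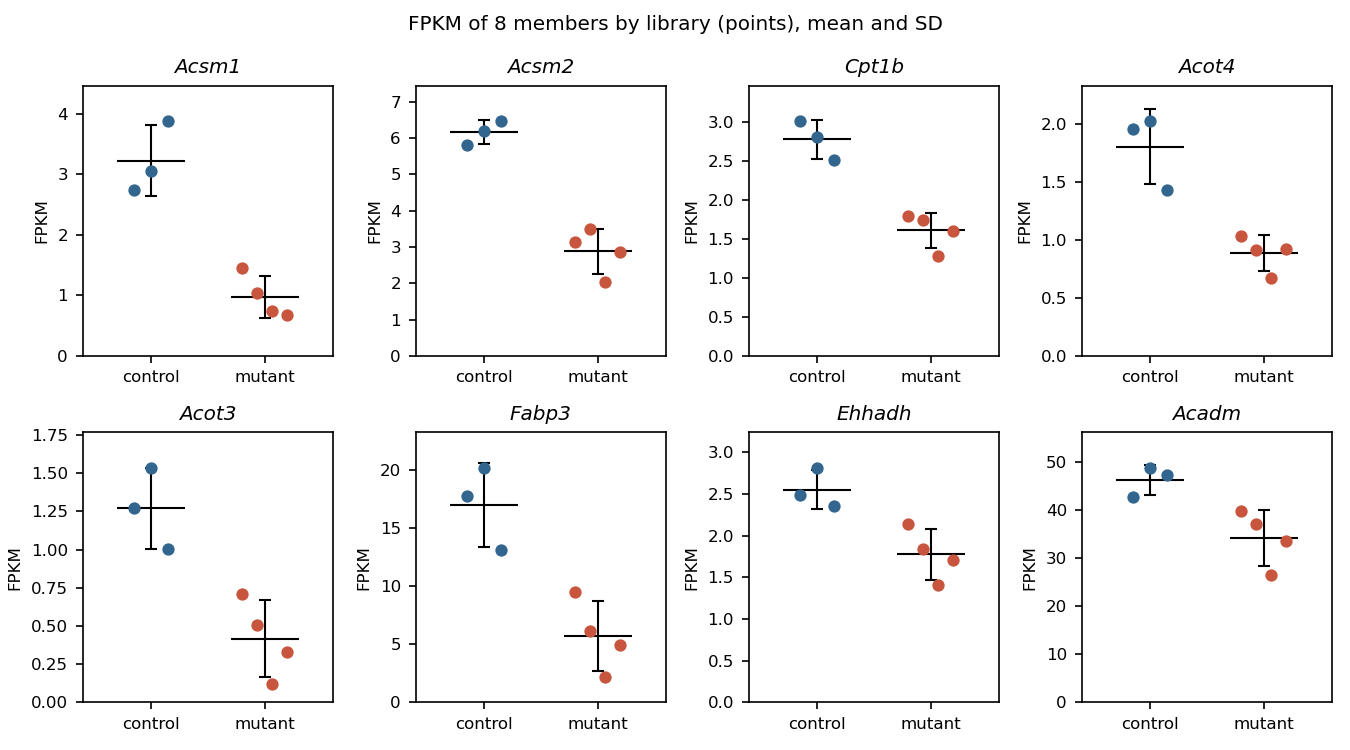
FPKM (vertical axis, linear from 0, 1 scale per panel) of 8 members in each control and mutant library (points), with the mean and SD of each group. The groups are apart in all 8 panels; Acsm1, Acsm2, Cpt1b and Acot4 passed limma's test, and Acot3, Fabp3, Ehhadh and Acadm did not.

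Entry into mitochondria depends on CPT1 of the outer membrane, which has a liver form (Cpt1a), a muscle form (Cpt1b) and a brain form (Cpt1c), and on CPT2 of the inner membrane. The muscle form fell, 1 of the 4 Cpt genes tested. Cpt1b (ENSMUSG00000078937.9) gave 3.01, 2.81 and 2.51 FPKM in control and 1.80, 1.75, 1.29 and 1.603 in mutant libraries. The groups were apart, with a mutant mean of 57.9% of the control mean (log2 fold change -0.54, SE 0.10, limma adjusted p = 0.0398). The call was lost with a pseudocount of 0.1 (limma adjusted p = 0.0535) and with quantile normalization (limma adjusted p = 0.0523). Cpt1b took 11.6%, 10.8% and 10.2% of the summed FPKM of the CPT1 forms in controls and 8.17%, 6.78%, 6.04% and 6.64% in mutants. Cpt1a, the main form, lay at 15.7 to 17.5 FPKM in controls and 12.7 to 17.1 in mutants (log2 fold change -0.16, SE 0.11, limma adjusted p = 0.618). The log2 fold change was 0.15 ± 0.09 (SE) for Cpt1c and 0.04 ± 0.07 (SE) for Cpt2. The annotation holds a transcript model that reads through from Chkb into Cpt1b and shares 93% of the 50-base stretches of Cpt1b, so how reads of the pair were divided is uncertain. Chkb itself lay at 13.02 to 15.47 FPKM in controls and 12.5 to 15.3 in mutants. Any part of muscle RNA in the Cpt1b values was not tested. In control replicate 1, where muscle markers were high, Cpt1b was also the highest of the controls. Its log2 fold change was -0.49 without that library, and the call was lost without it (limma adjusted p = 0.175) as without any other 1 library except mutant replicate 1 (limma adjusted p from 0.0586 to 0.212 over those others).

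The acyl-CoA dehydrogenases, which take the first step of each mitochondrial round, had fold changes mostly below 0 and no call. Of 9 tested Acad genes 8 were below 0 (median -0.10), 0 passed by limma or limma-voom, and 2 were lower at an unadjusted p under 0.05. Acadm, the medium-chain enzyme, gave 42.6, 48.7 and 47.1 FPKM in control and 39.7, 37.0, 26.4 and 33.5 in mutant libraries. All mutants were below all controls, and mutant replicate 3 was the lowest (log2 fold change -0.44, SE 0.13, limma adjusted p = 0.149). The authors' deposited table gave Acadm an adjusted p of 0.0361. Acads, the short-chain enzyme and the most abundant of the family, lay at 41.9 to 48.9 and 35.9 to 46.4 FPKM (limma adjusted p = 0.354). Acad10 lay at 1.76 to 2.31 and 1.43 to 1.83 FPKM (limma adjusted p = 0.479), and 18.3% of its 50-base stretches were shared with Acad12, which stayed under 1 FPKM and was not tested. The long-chain enzyme Acadl and the very-long-chain enzyme Acadvl had log2 fold changes of -0.10 ± 0.11 and -0.17 ± 0.10 (SE), with overlapping groups.

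The Ech and Hadh genes, which include enzymes of the later mitochondrial steps, held no call, with fold changes mostly just below 0. Of the 9 tested Ech and Hadh genes 8 were below 0, 0 passed by limma or limma-voom, 1 was lower at an unadjusted p under 0.05, and the median log2 fold change was -0.03. Hadha and Hadhb, the subunits of the trifunctional protein for long chains, gave log2 fold changes of 0.03 ± 0.06 and -0.03 ± 0.08 (SE). Hadh, the short-chain hydroxyacyl-CoA dehydrogenase, lay at 82.8 to 91.0 FPKM in controls and 75.9 to 95.4 in mutants, and Echs1, the short-chain hydratase, at 79.9 to 87.0 and 76.1 to 95.3. The gene under that unadjusted threshold was Echdc3, an enoyl-CoA hydratase domain protein, with 2.29, 2.54 and 2.46 FPKM in control and 2.00, 1.93, 1.39 and 1.82 in mutant libraries (log2 fold change -0.30, SE 0.10, limma adjusted p = 0.183). Its groups did not overlap. For Echdc1 and Echdc2 the log2 fold changes were -0.07 ± 0.08 and -0.06 ± 0.09 (SE). The pseudogene Hadhb-ps, which the symbol rule also takes, lay at 1.06 to 1.66 and 1.21 to 1.51 FPKM.

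Peroxisomal oxidation starts with the acyl-CoA oxidases, which Ehhadh, a bifunctional enzyme, follows. Of the 3 tested Acox and Ehhadh genes 0 passed by limma or limma-voom, and 1 was lower at an unadjusted p under 0.05. Ehhadh gave 2.49, 2.81 and 2.35 FPKM in control and 2.14, 1.84, 1.41 and 1.71 in mutant libraries, with groups apart and a mutant mean of 69.5% of the control mean (log2 fold change -0.36, SE 0.10, limma adjusted p = 0.142). In the authors' deposited table its adjusted p was 0.0496, just under the threshold. Acox3, a branched-chain oxidase, lay at 2.62 to 3.07 FPKM in controls and 2.64 to 2.97 in mutants (log2 fold change -0.01, SE 0.08, limma adjusted p = 0.973), with overlapping groups.

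Of the 9 tested thioesterase genes 1 fell, and 5 were lower at an unadjusted p under 0.05 (background 1.05% and 8.48%). Of the 5, 4 were Acot1 to Acot4, neighbours on chromosome 12 that share sequence. Acot3 passed the filter through the controls alone, and Acot4 reached 1 FPKM in mutant replicate 1 only among the mutants. Acot2, Acot1, Acot4, Acot3, Acot5 and Acot6 lie in this order on chromosome 12 and encode related enzymes of mitochondria (Acot2), cytoplasm (Acot1) and peroxisomes (Acot3 and Acot4 among them). The 250 bases before the start of Acot4 are printed because it was the called gene of the cluster and the only member with CAAAGGTCA in its window (RefSeq, GRCm38.p6, plus strand, capitals as above).
Acot4, chr12:84038129-84038378: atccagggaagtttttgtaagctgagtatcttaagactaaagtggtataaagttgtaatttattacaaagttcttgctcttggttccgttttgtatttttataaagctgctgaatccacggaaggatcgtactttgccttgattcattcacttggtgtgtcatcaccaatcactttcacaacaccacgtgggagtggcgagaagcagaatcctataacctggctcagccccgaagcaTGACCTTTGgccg
The match is its reverse complement and begins 13 bases before the annotated start.

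Acot4 (ENSMUSG00000052392.6), a succinyl-CoA thioesterase, fell. It gave 1.96, 2.02 and 1.43 FPKM in control and 1.04, 0.913, 0.670 and 0.923 in mutant libraries, a mutant mean of 49.1% of the control mean (log2 fold change -0.57, SE 0.11, limma adjusted p = 0.0466). The groups were apart, though control replicate 3 lay nearer to the mutants, and the call was lost with a pseudocount of 0.1 (limma adjusted p = 0.0583). Acot3 gave 1.27, 1.54 and 1.01 FPKM in control and 0.712, 0.510, 0.120 and 0.329 in mutant libraries, on as few as 19 reads in mutant replicate 3. Its mutant mean was 32.9% of the control mean, and the test did not call it (log2 fold change -0.69, SE 0.15, limma adjusted p = 0.0694). In the authors' deposited table Acot3 had an adjusted p of 0.00922. Acot1, the most abundant of the cluster, gave 22.2, 25.0 and 19.0 FPKM in control and 20.1, 13.2, 11.4 and 15.8 in mutant libraries, where mutant replicate 1 lay within the control range (log2 fold change -0.53, SE 0.18, limma adjusted p = 0.205). Acot2 gave 10.9, 11.8 and 10.1 and 9.30, 8.69, 6.82 and 9.60 FPKM, with groups apart (log2 fold change -0.32, SE 0.11, limma adjusted p = 0.228). Acot6 stayed under 1 FPKM and was not tested, with mutants at 81.6% to 110% of the control mean.

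Acot7, Acot8, Acot9, Acot11 and Acot13 all had overlapping groups, with log2 fold changes from -0.17 to 0.10. Acot7, an enzyme best known from brain, was the most abundant thioesterase, at 22.2 to 24.9 and 19.3 to 23.9 FPKM (limma adjusted p = 0.621). Acot4 took 5.26%, 4.91% and 4.46% of the summed FPKM of the cluster in controls and 3.25%, 3.77%, 3.40% and 3.35% in mutants, and the shares did not overlap. Cluster neighbours share sequence, and the share of 50-base stretches found in transcripts of other genes was 18.7% for Acot1, 27.7% for Acot2, 19.5% for Acot3 and 4.87% for Acot4. Acot3 and Acot4 also overlap another gene model on the same strand and an antisense gene, so how their reads were divided is uncertain.

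No gene of peroxisome assembly was called. The Pex genes encode peroxins, which include the import receptors Pex5 and Pex7, the docking protein Pex14, the ring-finger proteins Pex2 and Pex10, the ATPase Pex6 with its anchor Pex26, the membrane assembly factors Pex3, Pex16 and Pex19, and the Pex11 division proteins. All 16 listed Pex genes were tested, 0 passed by limma or limma-voom, 8 were below 0 and 8 above, and the median log2 fold change was -0.02. At an unadjusted p under 0.05 there was 1, higher. It was Pex3, with 11.98, 11.8 and 11.0 FPKM in control and 13.2, 13.3, 12.1 and 13.3 in mutant libraries (log2 fold change 0.15, SE 0.07, limma adjusted p = 0.358). The lowest mutant lay just above the highest control. Pex6 lay at 18.7 to 21.3 and 16.3 to 20.3 FPKM (limma adjusted p = 0.435). Pex7 lay at 2.14 to 2.65 and 1.82 to 2.23 FPKM (limma adjusted p = 0.586). Pex19, the most abundant, lay at 38.1 to 43.5 and 38.6 to 41.9 FPKM (limma adjusted p = 0.948).

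Among libraries, mutant replicate 3 was the lowest of all 7 for 27 of the 60 members (45%), against 17.2% of all genes tested. Of the 11 members whose mutants all lay below the controls, it was the lowest mutant for 9, and mutant replicate 1 the highest for 8. The mean of log2(FPKM + 1) over all 60 members was 3.586, 3.659 and 3.606 in controls and 3.563, 3.483, 3.355 and 3.477 in mutants 1 to 4, so every mutant was below every control. The same held for 4 of the 9 families, Acsm, Cpt, Acox with Ehhadh and Acot, and the groups overlapped for the others. Summed FPKM overlapped over all 64 members, at 1189 to 1282 in controls and 1078 to 1316 in mutants. The Cpt sums overlapped too, at 38.2 to 40.4 and 36.0 to 39.0, and Cpt1b was the only Cpt gene with groups apart. The sums of Acsm, Acox with Ehhadh and Acot did not overlap. Within Acot this held for Acot1 to Acot4 with Acot6, at 32.1 to 41.2 FPKM in controls and 19.7 to 31.9 in mutants. The sums of the other Acot genes overlapped, at 68.4 to 72.5 and 64.4 to 69.0. A matching mean over all genes tested is not given here. Over the 2 tested Acsm genes, the called Acsm1 and Acsm2, the mean was 2.336, 2.434 and 2.593 in controls and 1.668, 1.599, 1.199 and 1.348 in mutants. Over the Cpt genes it was 3.211, 3.204 and 3.155 and 3.088, 3.112, 2.999 and 3.050. Over the Acox and Ehhadh genes it was 2.602, 2.623 and 2.470 and 2.435, 2.398, 2.337 and 2.398, and over the Acot genes 3.144, 3.216 and 3.059 and 3.012, 2.877, 2.750 and 2.875. The gap was widest for Acsm. Over the Acad genes it was 4.084, 4.215 and 4.195 and 4.145, 4.078, 3.901 and 4.018, with overlap. Over the Pex genes it was 3.194, 3.248 and 3.241 and 3.276, 3.141, 3.143 and 3.203, also with overlap. The proximal tubule markers gave 3.500, 3.510 and 3.256 and 3.006, 2.776, 2.082 and 2.626, with mutant replicate 3 lowest and mutant replicate 1 highest of the mutants. Whether these markers account for the order of the members was not tested.

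**Figure D4:**
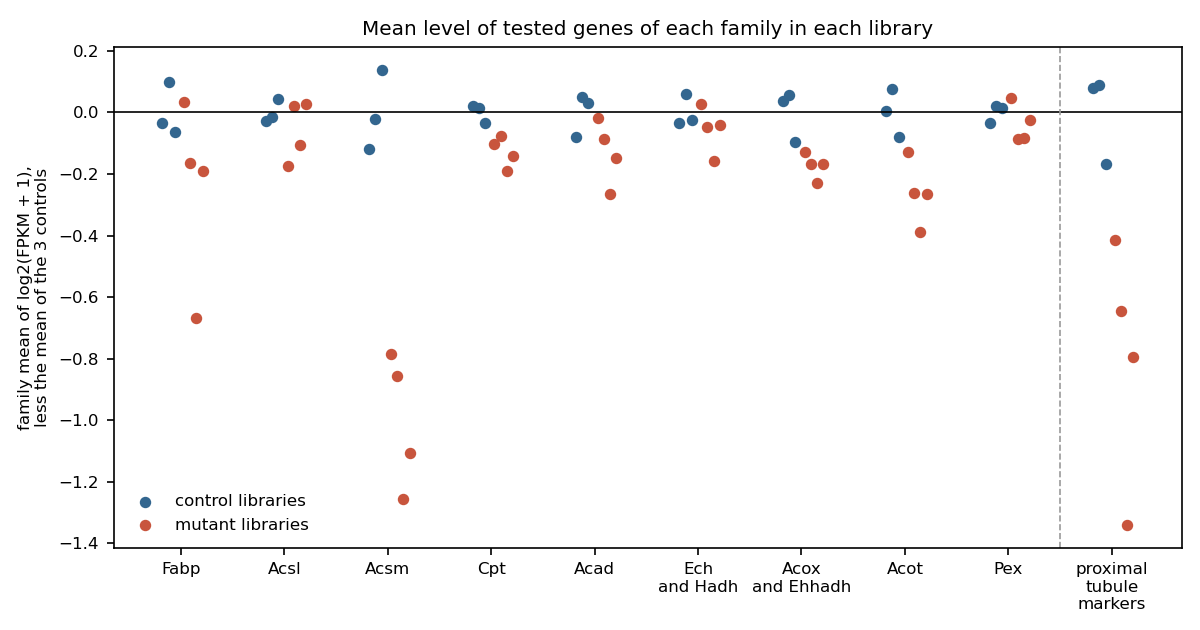
Mean of log2(FPKM + 1) over the tested genes of each family in each library, less the mean of the 3 controls (vertical axis), with the proximal tubule markers at the right for comparison and 1 point per control and mutant library. All mutant points lie below all control points for Acsm, Cpt, Acox with Ehhadh, Acot and the proximal tubule markers, and the points of the groups overlap for Fabp, Acsl, Acad, Ech with Hadh and Pex.

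Genes of the same pathways outside these families held few calls by limma. Of 19 further beta-oxidation genes 0 passed by limma or limma-voom, with 4 lower at an unadjusted p under 0.05. The authors' deposited table called 1 of the 19 lower and 0 higher (background 3.84% and 1.85%). That gene was Acaa1b, with a deposited adjusted p of 0.00484. By limma the smallest p was also that of Acaa1b, a peroxisomal thiolase, at 9.82 to 11.5 FPKM in controls and 2.92 to 7.998 in mutants (log2 fold change -0.94, SE 0.25, limma adjusted p = 0.123). Mcee, an epimerase of propionate breakdown, followed with a log2 fold change of -0.25 ± 0.08 (SE). None of 6 carnitine genes passed by limma or limma-voom, and 0 had an unadjusted p under 0.05. The log2 fold change was -0.13 ± 0.07 (SE) for the carnitine transporter gene Slc22a5 and 0.09 ± 0.08 (SE) for the carnitine acetyltransferase gene Crat. In the list of uptake and malonyl-CoA control 0 of 11 passed by limma or limma-voom, and 3 were lower at an unadjusted p under 0.05. They included Slc27a2, an acyl-CoA synthetase and transporter that is also among the proximal tubule markers, at 4.88 to 6.63 FPKM in controls and 0.758 to 3.60 in mutants (log2 fold change -1.09, SE 0.31, limma adjusted p = 0.153). Mlycd, which degrades malonyl-CoA, lay at 7.33 to 8.08 and 5.23 to 6.91 FPKM (log2 fold change -0.32, SE 0.09, limma adjusted p = 0.131).

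Of 28 tested genes for other peroxisomal proteins 1 fell and 6 were lower at an unadjusted p under 0.05. The authors' deposited table called 4 of the 28 lower and 0 higher (background 3.84% and 1.85%). The gene that fell was Tysnd1, a protease that processes enzymes imported into the peroxisome, with 18.1, 18.7 and 17.0 FPKM in control and 13.3, 8.29, 11.0 and 11.2 in mutant libraries (log2 fold change -0.68, SE 0.13, limma adjusted p = 0.0460). The groups were far apart, and limma-voom called it too. Its call was lost with a pseudocount of 0.1 (limma adjusted p = 0.0567) and on leaving out any 1 library other than mutant replicate 1. In the ketone body list 0 of 5 passed by limma or limma-voom, with 1 lower at an unadjusted p under 0.05. Oxct1, which activates ketone bodies for use, gave a log2 fold change of -0.15 ± 0.06 (SE), and Bdh1, which interconverts them, -0.25 ± 0.13 (SE). The authors' deposited table called none of the tested genes of the carnitine, uptake and ketone body lists.

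Of 19 tested transcriptional regulators of these genes 0 passed by limma or limma-voom, while 8 were lower and 1 higher at an unadjusted p under 0.05. The authors' deposited table called 3 lower and 1 higher (background 3.84% and 1.85%). Hnf4a was among the lower (deposited adjusted p of 0.00313), and Nr2f2 was the higher (0.00489). Hnf4a, a nuclear receptor of the proximal tubule and also among its markers here, gave 29.8, 32.4 and 30.4 FPKM in control and 22.0, 23.7, 16.1 and 23.3 in mutant libraries (log2 fold change -0.53, SE 0.12, limma adjusted p = 0.0783). Its groups were apart. Nr2f2, a nuclear receptor of mesenchyme and vessels, lay higher in every mutant, at 69.5 to 77.8 FPKM in controls and 84.1 to 95.5 in mutants (log2 fold change 0.30, SE 0.07, limma adjusted p = 0.0783). Ppara, the receptor best known for driving fatty acid oxidation, lay at 0.825 to 1.10 and 0.474 to 0.634 FPKM, without overlap. Its mutant mean was 61.3% of the control mean, on 98 to 295 reads. Ppara was under the filter and so was not in the main limma fit.

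Markers of other cells in the whole kidney moved in part. Of 10 stromal markers 2 were higher by limma, with 0 lower and 5 higher at an unadjusted p under 0.05. Of 10 ureteric markers 2 were higher by limma and none lower, with 3 lower and 5 higher at an unadjusted p under 0.05. The authors' deposited table called 2 of these 10 lower and 5 higher (background 3.84% and 1.85%). Mc2r of the adrenal cortex was higher by limma, while Cyp11a1 and Star, its other listed markers, overlapped and were not tested. Summed stromal markers ran over 534 to 694 FPKM in controls and 678 to 877 in mutants, and ureteric markers over 157 to 175 and 202 to 212. None of the tested liver, erythroid, macrophage, muscle, glial or adipocyte markers passed by limma or limma-voom. At an unadjusted p under 0.05, 1 liver and 6 macrophage markers were higher and 1 adipocyte marker was lower. The part of these cells in the members' values was not tested.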

How the data were processed

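RNA from whole kidneys was sequenced after a directional library kit, per the labels' protocols. The submitters' processing notes name FastQC 0.11.5 and Trim Galore 0.5.0 for reads, then list STAR 2.6.0c with HTSeq 0.6.1p2, and the build as mm39 (GRCm39); annotation, gene lengths and strand setting are not given in the sources used here. Per the file headers the authors deposited FPKM per library and DESeq2 columns: a mean normalized count (a signal over all libraries), the log2 fold change with its error, the test statistic (a score) and p-values. Counts recovered from these came within 0.05 of a whole number for 100% of values.

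Genes with at least 1 FPKM in at least 3 libraries were tested with limma 3.58.1 (R 4.3.3) on log2(FPKM + 1), trended and robust, two-sided, with Benjamini-Hochberg adjustment over all 13466; "fell" and "rose" mean an adjusted p under 0.05. This scale understates changes of low genes. The members and lists were chosen with earlier results of these data known. Named were, per family, each called member, those with the smallest p up to 3 in all, and the most abundant one, and per further list up to 4 called genes or the 2 with the smallest p; other genes with values were picked after these were seen, and a few genes are not reported here by name, though counts and medians include them. The alternatives were a pseudocount of 0.1, no filter, quantile normalization, the replicate number as a block, the deposited test, limma-voom on recovered counts and leaving out each library. The fit was tested on simulated data. Transcripts of GENCODE M21 (GRCm38) served for gene order, overlaps and shared 50-base stretches, and promoter windows came from RefSeq (GRCm38.p6).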

Additional observations from a re-analysis of the deposited data

Results flagged for a closer look

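Among the 40 named genes, the 4 mutant libraries were searched for a library far from the others (a gap to its nearest neighbour above the 95% critical value of Dixon's test); chance gives such a gap in about 1 group in 20. There were 2. Pex3 was at 12.07 FPKM in mutant replicate 3 and at 13.25 to 13.34 in the other mutants. Mcee was at 14.31 FPKM in mutant replicate 1 and at 11.88 to 12.24 in the others.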

How the results depend on the processing

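Members lower in mutants numbered 4; the count was 2 with a pseudocount of 0.1, 0 with the replicate number as a block, 8 in the authors' deposited test, and 0 to 6 when 1 library was left out. Lower calls among all genes numbered 142 in the main fit, 65 with a pseudocount of 0.1 and 1 with the replicate block. They numbered 7 to 373 when 1 library was left out. No member was higher under any alternative run. Genes called in the 6 further lists numbered 1; the count was 0 with a pseudocount of 0.1, 0 with the replicate block, 11 in the authors' deposited test, which also holds genes under the filter, and 0 to 6 when 1 library was left out. The members' median log2 fold change ran from -0.10 to -0.05 over all alternatives. The labels do not say that replicate numbers pair libraries, and deviations of same-numbered libraries correlated at -0.156, 0.028 and 0.098, with control 3 alone closest to its own number; the replicate block left 2 calls among all genes. Of 517 values for named genes under alternatives, 11 changed sign, all of genes near 0. With quantile normalization the log2 fold change of Acsl1 came to 0.01942 and that of Acox3 to 0.04598. With 1 library left out, it ran over -0.06458 to 0.01193 for Acsl1, -0.05282 to 0.03071 for Acox3, -0.06591 to 0.043 for Hadh, -0.1165 to 0.003446 for Echdc2 and -0.014 to 0.07866 for Pex19. The cause was not tested. Depth limits Acsm3, Acsm5 and Acot3, with as few as 18 or 19 reads in a library.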
